A study of Mus musculus with 12 samples.

Results

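The cholesterol and fatty acid synthesis genes are 31 mouse genes that carry acetyl units into cholesterol or into long-chain fatty acids, with their regulators. They were chosen by gene symbol, and all 31 were found among the 13942 genes of the deposited table. RNA was profiled by sequencing in the retinal pigment epithelium (RPE), the pigmented cell layer behind the retina, of C57BL/6J mice. The 12 libraries fall into 4 groups of 3: P5 Sox9-cKO, P5 wild type (WT), E15.5 Sox9-cKO and E15.5 WT, where P and E mark postnatal and embryonic days and cKO is a conditional knockout of the transcription factor gene Sox9. The design asks what differs between the genotypes at each age, and it also allows the ages to be compared within each genotype. The sources used here do not give the Cre line, the deleted exons or the way RPE was separated from its neighbours. The labels do not say whether the 3 libraries of a group came from separate animals, so the p-values measure the spread between samples, which may be technical.

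Cholesterol is built from acetyl-CoA through mevalonate, isoprenoid units, squalene and lanosterol, and fatty acids are built from the same acetyl-CoA by carboxylation, chain extension and desaturation. Both branches are switched on by the sterol regulatory element-binding proteins. The product of Srebf2 acts mainly on cholesterol genes and that of Srebf1 mainly on fatty acid genes, and the endoplasmic reticulum protein encoded by Insig1 holds both back when sterols are plentiful. The RPE takes up lipids from the blood and from the photoreceptor outer segments it engulfs, and it returns lipids to both sides.

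The values are gene counts that the authors normalised so that every library has the same distribution, with a floor of 50. They are called normalised counts here, they are not divided by gene length, and how deeply each library was sequenced is unknown. Of 31 members all passed the filter for testing, and 1, Fdps, touched the floor, in 4 of 12 libraries, all of them at P5. A gene was called where its adjusted p was under 0.05 in limma. The targeted gene went against its label at P5: Sox9 stood at 2136, 2384 and 2928 in the P5 libraries labelled cKO, against 964, 1500 and 1111 in P5 WT, a log2 difference of 1.07 ± 0.17 (SE, adjusted p = 0.0316). At E15.5 it stood at 1034, 990 and 1006 in the libraries labelled cKO, against 1156, 1060 and 932 in WT. The value per gene does not separate deleted from remaining exons, so cKO below always means libraries labelled cKO. Of 13 RPE markers 12 were in the table, and 10 of 12 rose with age in each genotype. All 10 cell cycle markers fell with age in each genotype. Photoreceptor markers, which belong to the neighbouring retina, summed over 18 genes to between 9466 and 68758 in the P5 cKO libraries and between 10100 and 130860 in the P5 WT libraries. At E15.5 their sum was between 6705 and 6994 in cKO and between 6762 and 7115 in WT, with 15 to 17 of 18 at the floor in each library. The few markers above the floor made up most of the E15.5 sum, so it does not measure the list as a whole. The P5 libraries WT 3 and cKO 2 held the most photoreceptor RNA of their genotype. Skeletal muscle markers summed over 9 genes to between 33400 and 54184 in E15.5 cKO and between 32267 and 63884 in E15.5 WT. The 12 RPE markers summed there to between 24043 and 39801 and between 31179 and 44552. At P5 the muscle sum was between 27310 and 68560 in cKO and between 14033 and 63928 in WT. The RPE sum was then between 136360 and 219000 and between 114550 and 214780. In bulk RNA, fewer cells of a type and less RNA per cell cannot be told apart.

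The promoters of 5 members are shown because these genes carry the results. Acat2, Idi1 and Cyp51 were the 3 largest called falls with age in cKO, and Acat2, Srebf2 and Idi1 were the 3 largest in WT. Hmgcs1 is the member whose window held the letters of a sterol regulatory element. Each window is the 250 bases before the gene's start in RefSeq (GRCm38.p6), written 5′ to 3′ along the gene's strand. Capitals mark matches, on either strand, to the sterol regulatory element TCACNCCAC, the CCAAT box CCAAT and the GC box GGGCGG.
Hmgcs1, chr13:119690101-119690350, plus strand: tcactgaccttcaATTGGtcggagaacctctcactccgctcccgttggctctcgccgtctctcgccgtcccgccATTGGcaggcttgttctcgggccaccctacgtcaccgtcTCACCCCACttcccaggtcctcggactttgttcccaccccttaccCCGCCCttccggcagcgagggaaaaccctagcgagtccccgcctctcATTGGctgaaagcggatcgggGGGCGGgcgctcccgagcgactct
Srebf2, chr15:82147019-82147268, plus strand: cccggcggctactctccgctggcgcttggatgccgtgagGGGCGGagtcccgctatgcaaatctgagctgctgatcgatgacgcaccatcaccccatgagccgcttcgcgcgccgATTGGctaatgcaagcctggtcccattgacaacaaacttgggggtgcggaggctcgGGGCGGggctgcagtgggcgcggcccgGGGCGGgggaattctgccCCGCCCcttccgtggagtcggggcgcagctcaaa
Idi1, chr13:8885356-8885605, plus strand: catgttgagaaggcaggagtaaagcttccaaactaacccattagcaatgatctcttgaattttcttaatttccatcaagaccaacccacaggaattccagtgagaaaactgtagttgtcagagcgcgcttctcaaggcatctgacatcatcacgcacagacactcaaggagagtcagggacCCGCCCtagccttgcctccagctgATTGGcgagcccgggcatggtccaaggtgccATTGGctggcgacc
Cyp51, chr5:4104698-4104947, minus strand: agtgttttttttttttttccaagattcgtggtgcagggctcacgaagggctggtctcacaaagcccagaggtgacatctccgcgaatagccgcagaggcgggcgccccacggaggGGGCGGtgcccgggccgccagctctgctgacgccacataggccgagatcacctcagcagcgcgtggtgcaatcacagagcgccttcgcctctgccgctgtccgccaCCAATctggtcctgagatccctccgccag
Acat2, chr17:12960726-12960975, minus strand: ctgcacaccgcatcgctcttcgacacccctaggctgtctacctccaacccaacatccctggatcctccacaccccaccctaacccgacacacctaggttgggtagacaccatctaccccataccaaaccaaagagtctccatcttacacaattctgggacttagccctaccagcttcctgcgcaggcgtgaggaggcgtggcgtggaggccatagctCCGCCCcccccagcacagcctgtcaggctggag
Windows were found for 24 of 31 members. The sterol regulatory element in this spelling was in 1 of 24 members, Hmgcs1, 137 bases before the start, and in 1.2% of all 27025 genes with a window. CCAAT was in 19 of 24 members (79.2%), against 37.5% of all genes, and GGGCGG was in 20 of 24 (83.3%), against 35.4%. The 5 members without CCAAT were Acat2, Acly, Acaca, Elovl6 and Fads2. The motifs did not overlap one another in the 5 windows shown. A match is a stretch of letters and not a measured binding site.

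At P5 many genes of the cholesterol branch, its regulator Srebf2 and the desaturase Scd2 were lower than at E15.5 in both genotypes, and Srebf1 was higher. In the cKO libraries 17 of 31 members fell and 1 rose at P5 relative to E15.5, where 26.1% of all tested genes fell and 43.7% were called in either direction. In WT 12 of 31 fell and 1 rose, where 23.2% of all tested genes fell and 38.2% were called in either direction. The median log2 fold change of the members was -0.54 in cKO and -0.43 in WT, where the median of all tested genes was -0.08 and -0.07. Every P5 library was lower than every E15.5 library in 19 members in cKO and 13 in WT, which 34.1% and 29.4% of all tested genes showed. Lower in both genotypes were 10 members (Acat2, Hmgcs1, Mvk, Mvd, Idi1, Sqle, Cyp51, Srebf2, Scd2 and Elovl6), and Srebf1 was the single member higher in both. Another 7 passed the test in cKO without passing it in WT, 2 in WT without passing it in cKO, and 11 in neither. No member's age change was shown to differ between the genotypes, since none was called in the test of that difference.

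**Figure D1:**
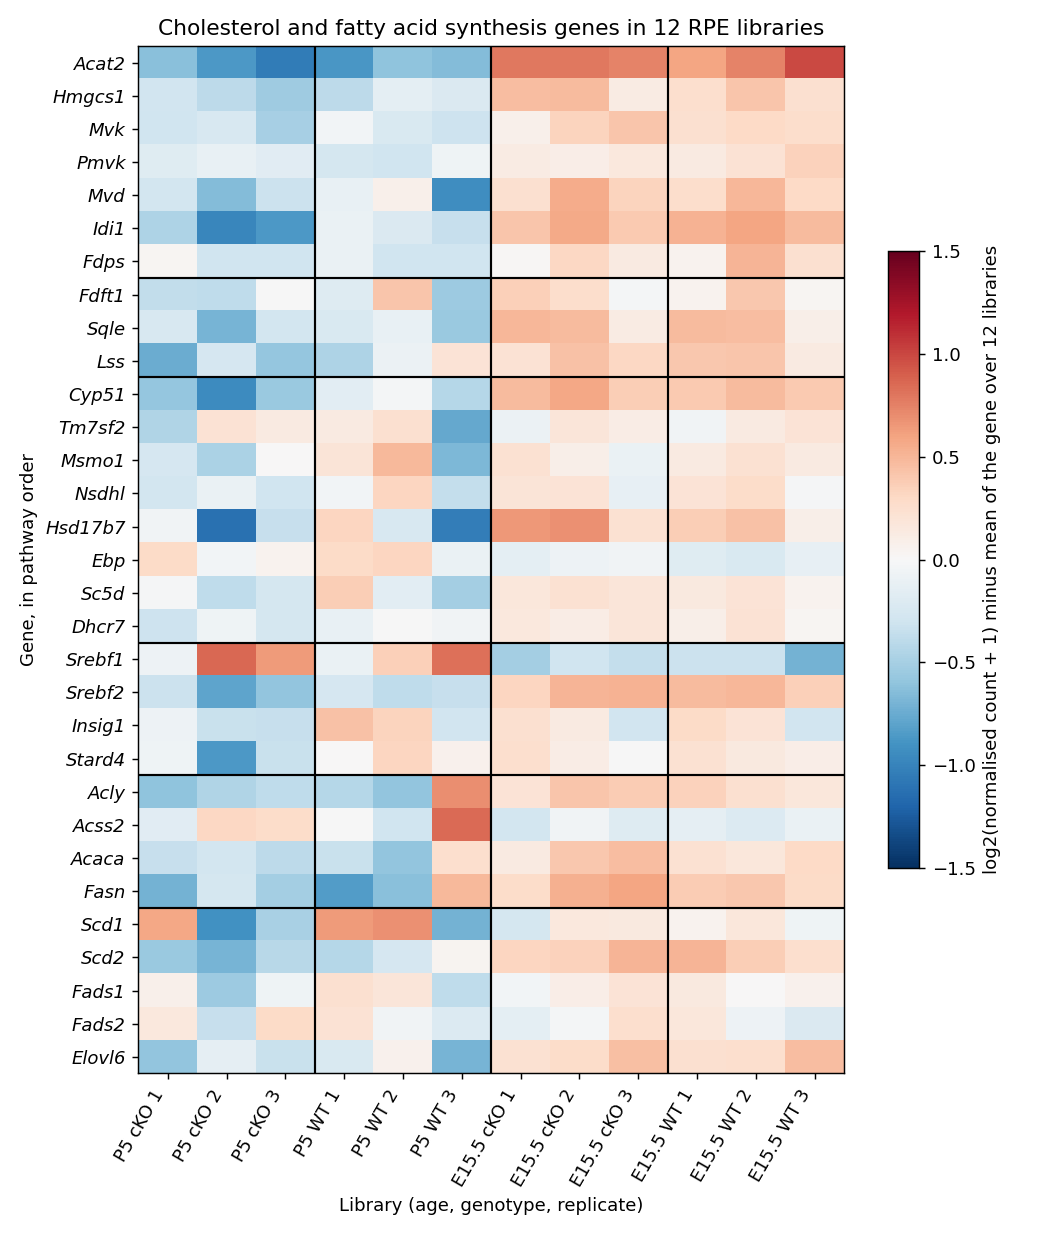
Log2(normalised count + 1) of each of the 31 members (rows, in pathway order, roles divided by lines) in each of the 12 libraries (columns, P5 cKO, P5 WT, E15.5 cKO, E15.5 WT), as the difference from the gene's mean over all libraries. The upper rows are blue at P5 and red at E15.5, Srebf1 is the reverse, and the P5 WT 3 column stands apart in Acly, Acss2, Acaca and Fasn.

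The early steps, from acetyl-CoA to farnesyl diphosphate, had 5 of 7 members lower at P5 in cKO and 7 of 7 in WT. Of all tested genes 26.1% fell in cKO and 23.2% in WT. Acat2, the cytosolic thiolase that joins acetyl-CoA units at the entry of the pathway, stood at 214, 182 and 160 in P5 cKO and 180, 218 and 211 in P5 WT, against 572, 575 and 555 in E15.5 cKO and 500, 553 and 660 in E15.5 WT. Every P5 library lay far below every E15.5 library, and the genotypes overlapped at both ages. Its log2 fold change with age was -1.62 ± 0.15 (SE) in cKO (adjusted p = 3e-05) and -1.48 ± 0.15 in WT (adjusted p = 5.5e-05), or 3.07-fold and 2.80-fold lower at P5. No other member changed as much in either genotype.

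Hmgcs1, the cytosolic HMG-CoA synthase that makes the precursor of mevalonate and whose promoter window carries the sterol element shown above, stood at 1394, 1297 and 1179 in P5 cKO and 1301, 1539 and 1463 in P5 WT, against 2341, 2375 and 1849 in E15.5 cKO and 2027, 2275 and 2013 in E15.5 WT. The ages did not overlap, and E15.5 cKO 3 was the lowest of the E15.5 libraries. It fell by 0.76 ± 0.12 on the log2 scale in cKO and by 0.55 ± 0.12 in WT (adjusted p = 0.000711 and 0.00484).

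Idi1, the isomerase that interconverts the isoprenoid units, stood at 269, 188 and 204 in P5 cKO and 348, 320 and 293 in P5 WT, against 499, 551 and 488 in E15.5 cKO and 537, 562 and 520 in E15.5 WT. The ages were fully separated, and at P5 each cKO library was lower than each WT library. With age it changed by -1.23 ± 0.14 on the log2 scale in cKO (adjusted p = 0.000116) and by -0.75 ± 0.14 in WT (adjusted p = 0.00231).

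The mevalonate kinase gene Mvk fell by 0.62 ± 0.13 and the mevalonate diphosphate decarboxylase gene Mvd by 0.80 ± 0.24 on the log2 scale in cKO. In WT Mvk fell by 0.46 ± 0.13 and Mvd by 0.68 ± 0.24. In cKO the Mvd call was lost without E15.5 cKO 2 or without P5 cKO 2 (adjusted p = 0.0716 and 0.0661). In WT it was lost in 8 of 12 fits that left out 1 library, namely each E15.5 library, P5 cKO 3 and P5 WT 3, with adjusted p between 0.0571 and 0.132. Without P5 WT 3 its log2 fold change in WT was -0.37. With the photoreceptor marker level as a covariate the Mvd call was lost in both genotypes, at -0.22 in cKO and -0.12 in WT (adjusted p = 0.424 and 0.675). That marker level itself differed with age. As mean log2 value it was 9.32 in P5 cKO and 9.24 in P5 WT, against 6.06 and 6.08 at E15.5. It hardly varied within E15.5, so fits with this covariate cannot fully separate its part from that of age. The Mvk call in WT was lost without E15.5 WT 2 (log2 fold change -0.44, adjusted p = 0.0563).

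The phosphomevalonate kinase gene Pmvk stood at 166, 174 and 168 in P5 cKO and 157, 153 and 180 in P5 WT, against 204, 202 and 211 in E15.5 cKO and 207, 218 and 239 in E15.5 WT. The ages did not overlap in either genotype. It fell by 0.44 ± 0.12 in WT (adjusted p = 0.0162), and in cKO its log2 fold change was -0.28 ± 0.12 (adjusted p = 0.0882). The WT call was lost without E15.5 WT 3 (-0.38, adjusted p = 0.0685). The farnesyl diphosphate synthase gene Fdps stood at 63.2, 50 and 50 in P5 cKO and 57.5, 50 and 50 in P5 WT, against 62.6, 77.1 and 67.8 in E15.5 cKO and 63.9, 88.2 and 72.8 in E15.5 WT. All its values lay close to the floor, which bounds how far it could fall. Its log2 fold change in WT was -0.50 ± 0.16 (adjusted p = 0.031), a call lost without E15.5 WT 2, E15.5 WT 3, P5 WT 2 or P5 WT 3 (adjusted p between 0.0544 and 0.122). Of its exon bases 26.7% are shared on the same strand with another annotated gene.

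**Figure D2:**
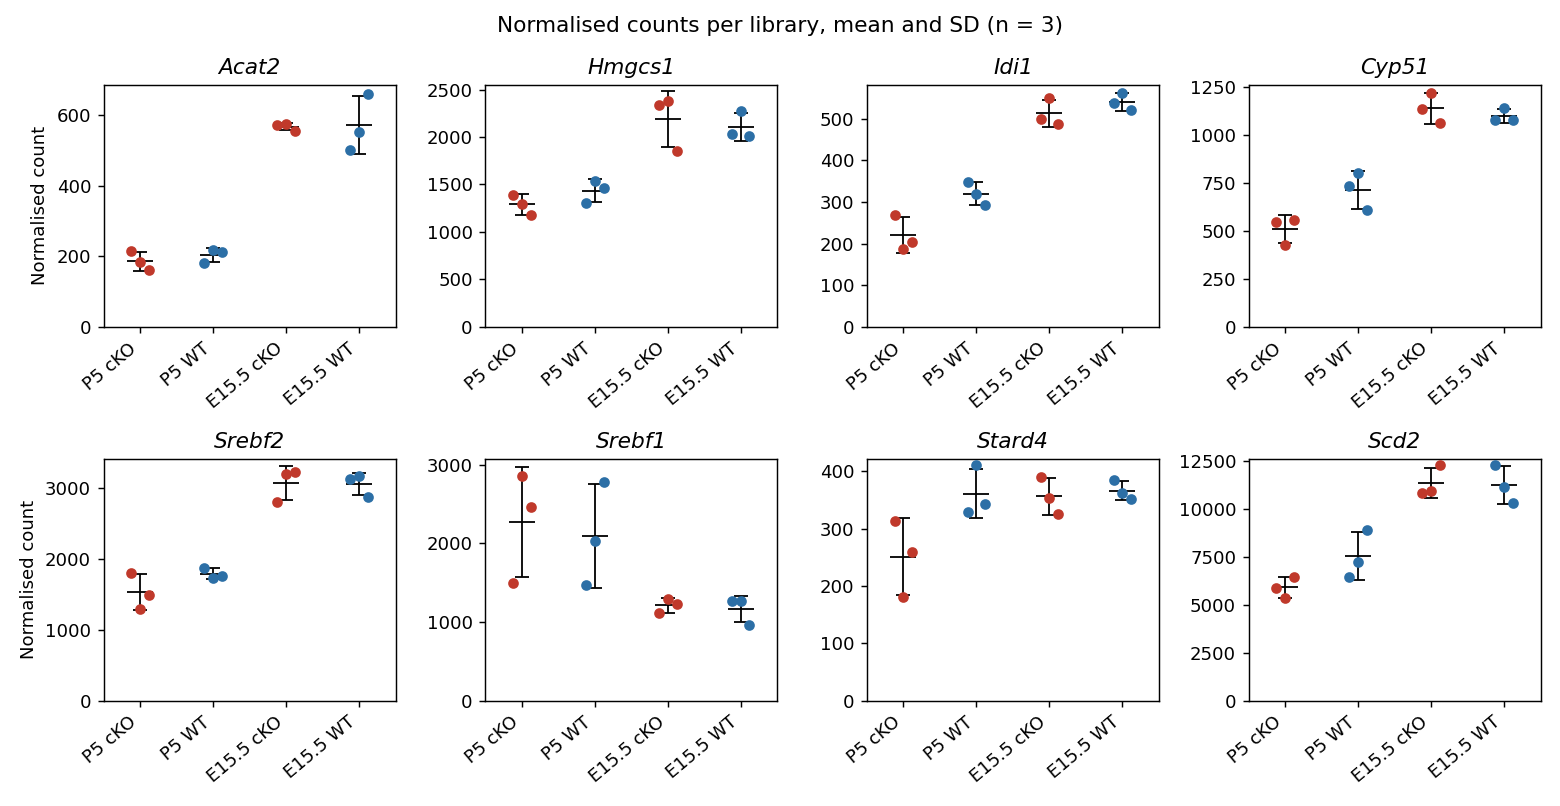
Normalised counts of Acat2, Hmgcs1, Idi1, Cyp51, Srebf2, Srebf1, Stard4 and Scd2 in each library (points), with the mean (long bar) and SD of 3 libraries, for P5 cKO, P5 WT, E15.5 cKO and E15.5 WT from left to right, on linear axes that start at 0. The P5 points lie below the E15.5 points for Acat2, Hmgcs1, Idi1, Cyp51, Srebf2 and Scd2 and above them for Srebf1, and for Idi1, Cyp51 and Stard4 the P5 cKO points lie below the P5 WT points.

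Squalene and lanosterol formation had 2 of 3 members lower with age in cKO and 1 of 3 in WT, where 26.1% and 23.2% of all tested genes fell. With 3 genes, the WT count is near that share. Sqle, the squalene epoxidase that commits squalene to sterols, fell by 0.77 ± 0.18 on the log2 scale in cKO and by 0.64 ± 0.18 in WT (adjusted p = 0.00552 and 0.0159). Its WT call was lost without E15.5 WT 1 or E15.5 WT 2 (adjusted p = 0.0603 and 0.0614). With the photoreceptor covariate the call was lost in both genotypes, at -0.44 in cKO and -0.32 in WT (adjusted p = 0.0912 and 0.207). Lss, the cyclase that folds the epoxide into lanosterol, fell by 0.84 ± 0.19 in cKO (adjusted p = 0.00462) and had a log2 fold change of -0.43 ± 0.19 in WT (adjusted p = 0.0928). Fdft1, the squalene synthase, was called in neither genotype, at -0.45 in cKO and -0.27 in WT, and 18.3% of its exon bases overlap the cathepsin gene Ctsb on the opposite strand. Whether the strand was used in counting is not stated in the sources at hand.

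The 8 enzymes that turn lanosterol into cholesterol divided. Cyp51, the lanosterol demethylase that opens this stretch, stood at 548, 427 and 556 in P5 cKO and 734, 801 and 608 in P5 WT, against 1136, 1220 and 1060 in E15.5 cKO and 1079, 1142 and 1075 in E15.5 WT. The ages were fully separated in each genotype, and the 3 P5 cKO libraries were the 3 lowest of all. Its log2 fold change with age was -1.17 ± 0.13 in cKO (adjusted p = 0.000101) and -0.63 ± 0.13 in WT (adjusted p = 0.00406). Its window above holds 1 CCAAT box and 1 GC box.

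Of the other 7 enzymes of this stretch, Hsd17b7, a keto-reductase of sterol demethylation, and Dhcr7, the final reductase of the pathway, were lower in cKO. Hsd17b7 had a log2 fold change of -1.03 ± 0.35 in cKO and -0.62 ± 0.35 in WT (adjusted p = 0.0339 and 0.184), and Dhcr7 one of -0.36 ± 0.10 and -0.17 ± 0.10 (adjusted p = 0.0114 and 0.189). The Hsd17b7 call was lost without E15.5 cKO 1, E15.5 cKO 2, P5 cKO 2 or P5 cKO 3 (adjusted p between 0.0608 and 0.124). It was also lost with the photoreceptor covariate, at -0.02 (adjusted p = 0.949). Tm7sf2, Msmo1, Nsdhl, Ebp and Sc5d, which reduce, demethylate or shift bonds of the sterol rings, were called in neither genotype. Their log2 fold changes with age lay between -0.42 (Sc5d) and 0.19 (Ebp) in cKO and between -0.24 (Sc5d) and 0.35 (Ebp) in WT.

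Among the regulators, the pair of sterol regulatory element-binding protein genes moved in opposite directions with age. Srebf2 stood at 1801, 1299 and 1488 in P5 cKO and 1880, 1730 and 1768 in P5 WT, against 2804, 3203 and 3229 in E15.5 cKO and 3126, 3176 and 2883 in E15.5 WT. No P5 library came near an E15.5 library. Its log2 fold change with age was -1.02 ± 0.12 in cKO (adjusted p = 0.000118) and -0.77 ± 0.12 in WT (adjusted p = 0.000708), a fall of 2.03-fold and 1.71-fold.

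Srebf1 stood at 1494, 2862 and 2464 in P5 cKO and 1476, 2025 and 2787 in P5 WT, against 1112, 1288 and 1230 in E15.5 cKO and 1262, 1262 and 967 in E15.5 WT. All P5 libraries were above all E15.5 libraries, and within P5 the libraries cKO 1 and WT 1 were the lowest of their groups. It rose by 0.86 ± 0.26 in cKO and 0.81 ± 0.26 in WT on the log2 scale (adjusted p = 0.022 and 0.0318). The call was lost in cKO without E15.5 cKO 1, E15.5 cKO 3, P5 cKO 2 or P5 cKO 3 (adjusted p between 0.0544 and 0.0816). In WT it was lost without any of the 3 E15.5 WT libraries, without P5 WT 2 and without P5 WT 3 (adjusted p between 0.057 and 0.116). The P5 libraries with the highest photoreceptor signal, cKO 2 and WT 3, also had the highest Srebf1 of their genotype, and the part of photoreceptor RNA in this rise was measured only as a covariate, with which the call was lost in both genotypes.

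Insig1, the sterol-sensing anchor of both regulators, was called in neither genotype, at -0.29 ± 0.22 in cKO and 0.10 ± 0.22 in WT. Stard4, a carrier that moves sterol between membranes, fell by 0.54 ± 0.19 in cKO (adjusted p = 0.0393) and had a log2 fold change of -0.03 ± 0.19 in WT (adjusted p = 0.93). The Stard4 call was lost in 8 of 12 fits that left out 1 library (each E15.5 library, P5 cKO 2 and P5 cKO 3), and without P5 cKO 2 its log2 fold change was -0.32 (adjusted p = 0.124).

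The fatty acid branch, 9 genes, had 5 lower with age in cKO and 2 in WT, with medians of -0.67 and -0.36 on the log2 scale, where 26.1% and 23.2% of all tested genes fell. The WT count is close to that share. Of the enzymes that supply acetyl-CoA and build the chain, Acly, the citrate lyase, Acaca, the acetyl-CoA carboxylase, and Fasn, the fatty acid synthase, were lower in cKO and none was called in WT. Their log2 fold changes were -0.81 ± 0.27, -0.67 ± 0.18 and -0.96 ± 0.28 in cKO (adjusted p = 0.0302, 0.0129 and 0.0184) and -0.36 ± 0.27, -0.45 ± 0.18 and -0.68 ± 0.28 in WT (adjusted p = 0.311, 0.0728 and 0.0782). The Acly call was lost without any 1 of the 6 cKO libraries (adjusted p between 0.0525 and 0.085). The Fasn call was lost without E15.5 cKO 2, E15.5 cKO 3, P5 cKO 1 or P5 cKO 3 (adjusted p between 0.0516 and 0.0611), and that of Acaca without E15.5 cKO 3 (adjusted p = 0.0508). With the lens marker level as a covariate all 3 calls were lost, with Acly at 0.03, Acaca at -0.04 and Fasn at -0.14 (adjusted p = 0.957, 0.88 and 0.786). Acss2, the cytosolic acetate-activating enzyme, was called in neither genotype, at 0.31 in cKO and 0.33 in WT. Without P5 WT 3, Acly, Acaca and Fasn were also called lower in WT, at -0.76, -0.69 and -1.09 (adjusted p = 0.000291, 0.00101 and 0.000188). So they were in WT with the photoreceptor covariate, at -1.01, -0.79 and -1.48 (adjusted p = 0.0052, 0.00782 and 0.000113).

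The desaturases and the elongase divided by gene. Scd2, the stearoyl-CoA desaturase that in mouse predominates in brain and early life, stood at 5881, 5338 and 6455 in P5 cKO and 6436, 7227 and 8880 in P5 WT, against 10807, 10929 and 12254 in E15.5 cKO and 12254, 11119 and 10313 in E15.5 WT. The ages did not overlap, and P5 WT 3 was the highest of the P5 libraries. Scd2 fell by 0.94 ± 0.14 in cKO and by 0.59 ± 0.14 in WT on the log2 scale (adjusted p = 0.000513 and 0.00853).

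Elovl6, which extends palmitate, fell by 0.67 ± 0.19 in cKO and by 0.61 ± 0.19 in WT (adjusted p = 0.0139 and 0.0247), a call lost in cKO without E15.5 cKO 3 (adjusted p = 0.0543) and in WT without E15.5 WT 2 or E15.5 WT 3 (adjusted p = 0.0525 and 0.0904). Scd1, a second stearoyl-CoA desaturase, and Fads1 and Fads2, which make polyunsaturated fatty acids, were called in neither. Their log2 fold changes were -0.29, -0.26 and 0.01 in cKO and 0.15, -0.06 and 0.03 in WT.

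**Figure D3:**
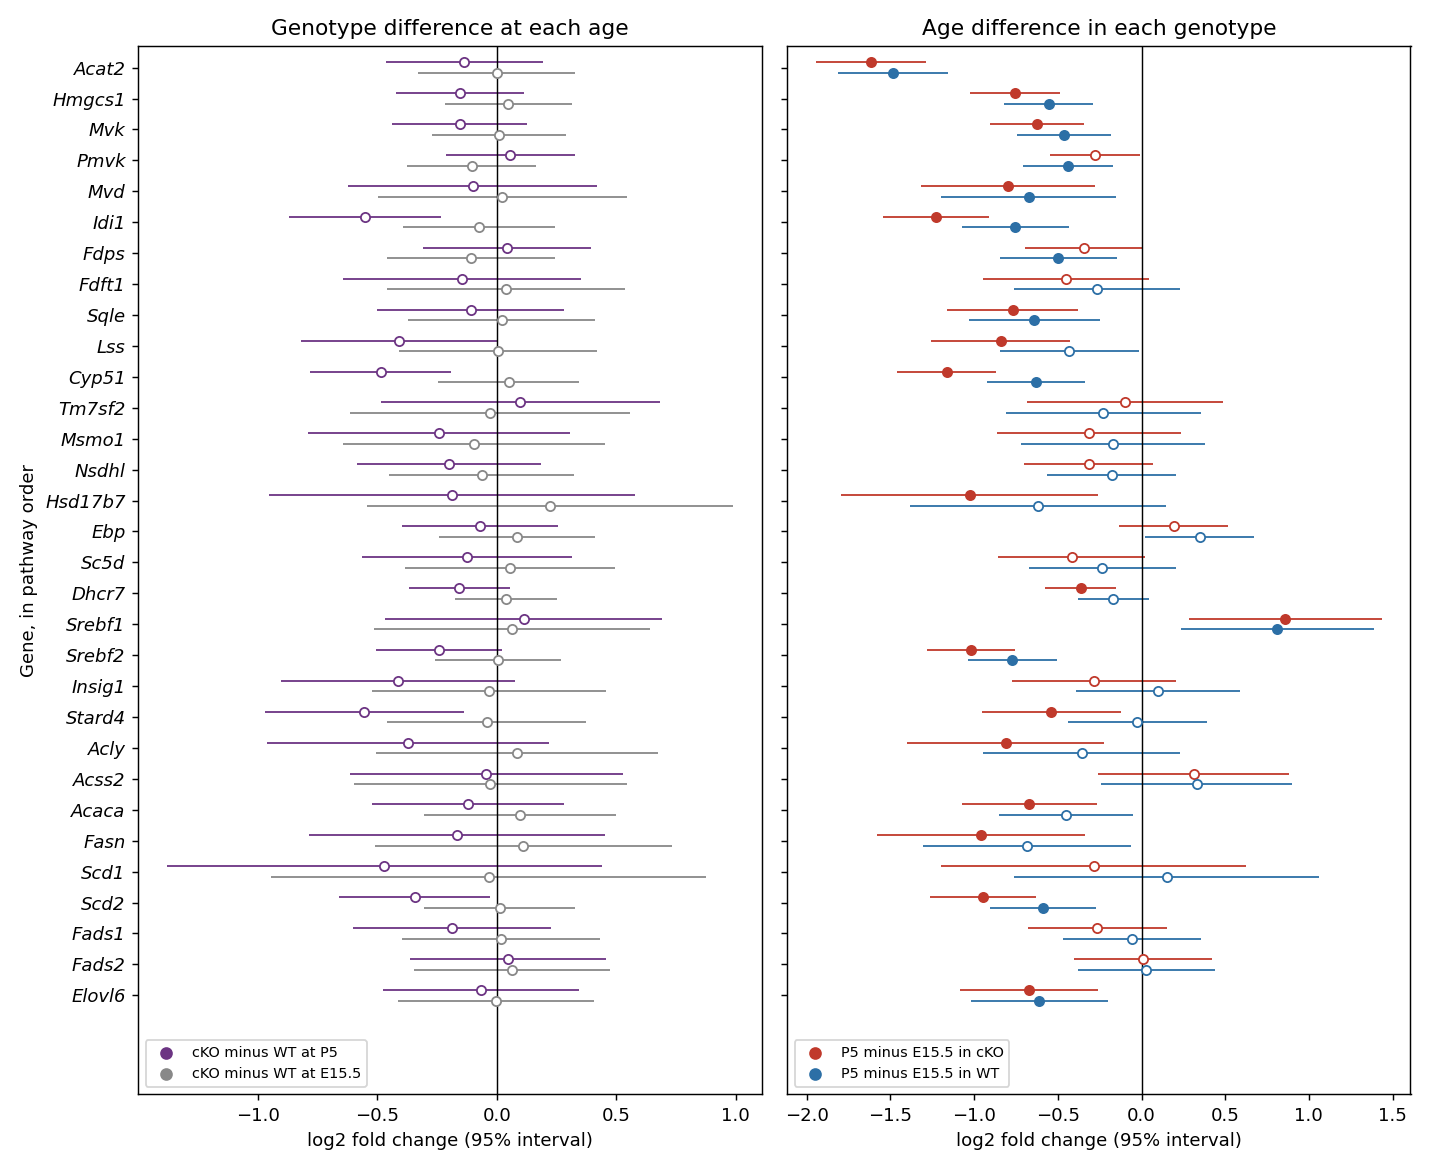
Log2 fold change with its 95% interval for each of the 31 members (rows, in pathway order), with the genotype difference at P5 and at E15.5 in the left panel and the age difference in cKO and in WT in the right panel, filled where called in limma. No point is filled on the left, and on the right 18 are filled for cKO and 13 for WT, with Srebf1 alone on the positive side among the filled points.

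Of the age calls, 10 of 18 in cKO (Acat2, Hmgcs1, Mvk, Idi1, Sqle, Lss, Cyp51, Dhcr7, Srebf2 and Scd2) and 6 of 13 in WT (Acat2, Hmgcs1, Idi1, Cyp51, Srebf2 and Scd2) held whichever 1 library was left out. The number of members called in WT was 7 without E15.5 WT 2 and 8 without E15.5 WT 3, and in cKO it was 12 without E15.5 cKO 3. Markers of other cell types moved with age beside these genes. Of 17 tested photoreceptor markers 10 rose in each genotype, and of 11 lens markers 9 rose in cKO and none was called in WT, where the unadjusted p was under 0.05 for 1 of 11. Endothelial markers rose in 5 of 8 in cKO and 8 of 8 in WT, myelin and Schwann cell markers in 6 of 6 and 5 of 6, and astrocyte and Muller glia markers in 4 of 5 in each genotype. Of 9 skeletal muscle markers 2 fell and 1 rose in cKO and 3 fell in WT, where 26.1% and 23.2% of all tested genes fell. The part of endothelial, Schwann, glial and muscle cells in the age changes was not tested. With the mean photoreceptor marker level as a covariate, 15 members were called in cKO, 12 of them among the 18, and 13 in WT, 6 of them among the 13. The calls it added in cKO were Pmvk, lower, and Ebp and Scd1, higher. In WT it added Lss, Acly, Acaca and Fasn, lower, and Ebp, Scd1 and Fads1, higher. Lss was at -0.89 and Scd1 at 1.39 in WT (adjusted p = 0.00133 and 0.000485). Besides the losses given above, this covariate ended the calls of Stard4 and Elovl6 in cKO and of Mvk, Fdps, Cyp51 and Elovl6 in WT (adjusted p between 0.0505 and 0.378). The lens covariate ended those of Mvk, Lss, Dhcr7, Srebf1 and Stard4 in cKO and of Fdps in WT (adjusted p between 0.0529 and 0.167). Mvk was at -0.57, Dhcr7 at -0.35 and Fdps at -0.46 with it, near their values without a covariate. Lss was at -0.59, nearer 0 than its -0.84 without one. Srebf1, at 1.17, and Stard4, at -0.86, lay further from 0 than without one. The mean lens marker level was also higher at P5 than at E15.5, so neither covariate can be fully told apart from age. Acat2, Hmgcs1, Idi1, Srebf2 and Scd2 were called lower in each genotype in every fit tried.

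No member was called for genotype at P5, where 0.244% of all tested genes were called. The log2 difference, cKO minus WT, was negative in 26 of 31 members, with a median of -0.16, where the median of all tested genes was -0.02. These signs rest on the P5 labels, which Sox9 went against, and an exchange of the labels would turn each of them. Among the 12 RPE markers the log2 difference at P5 was positive in 6 and negative in 6, with a median of -0.03. Of these markers 1 was called lower in cKO at P5, at -2.84 ± 0.33 (adjusted p = 0.00617). A different one was called lower at E15.5, at -3.99 ± 0.29 (adjusted p = 0.000521), which does not bear on the P5 labels. At an unadjusted p under 0.05, 4 members were lower (Idi1, Cyp51, Stard4 and Scd2) and none was higher, where 2.99% of all tested genes were lower and 4.69% higher. In 3 members every cKO library was lower than every WT library, which 2.73% of all tested genes showed.

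Idi1 was at 269, 188 and 204 in P5 cKO, against 348, 320 and 293 in P5 WT. The log2 difference was -0.55 ± 0.14 (95% interval -0.87 to -0.23), with an unadjusted p of 0.00299 and an adjusted p of 0.274 in limma. Cyp51 was at 548, 427 and 556 in P5 cKO, against 734, 801 and 608 in P5 WT. The difference was -0.49 ± 0.13 (95% interval -0.78 to -0.19), with an adjusted p of 0.317. Stard4 was at 313, 180 and 260 in P5 cKO, against 330, 411 and 344 in P5 WT, with a difference of -0.55 ± 0.19 (95% interval -0.97 to -0.14) and an adjusted p of 0.464. These 3 genes separate the genotypes by library, but none passed the test over all genes. The exact permutation test gave p = 0.1 for each, the smallest value that 3 libraries against 3 allow.

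Scd2 had a log2 difference of -0.34 ± 0.14 (adjusted p = 0.604), and its groups overlapped in 1 pair of libraries, P5 cKO 3 at 6455 and P5 WT 1 at 6436. Lss, Srebf2 and Insig1 followed, at -0.41 ± 0.19, -0.24 ± 0.12 and -0.41 ± 0.22 (adjusted p = 0.654, 0.689 and 0.714), and the 95% interval of each included 0. The largest positive difference was 0.11 ± 0.26, of Srebf1 (adjusted p = 0.977). Hmgcs1 and Acat2, which fell with age, differed between genotypes at P5 by -0.15 (95% interval -0.42 to 0.11) and -0.14 (95% interval -0.46 to 0.19).

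By branch, the genotype difference at P5 was negative for 15 of 18 cholesterol branch genes, 8 of 9 fatty acid branch genes and 3 of the 4 regulators and carrier. The medians were -0.15, -0.17 and -0.33. Lens markers had a median log2 difference of 1.42 at P5, positive in 10 of 11, with 0 of 11 called. At an unadjusted p under 0.05 in limma, 6 of 11 were higher and 0 lower, where 4.69% of all tested genes were higher. Lens markers summed to between 5266 and 10287 in P5 cKO and between 631 and 6105 in P5 WT, where WT 3 had 8 of 11 at the floor. The part of lens RNA in the genotype difference was tested only as a covariate: with it, 0 members were called and the median was -0.26. Endothelial markers had a negative difference in 8 of 8 with a median of -0.38, skeletal muscle markers a positive one in 9 of 9 with a median of 0.89, and astrocyte and Muller glia markers a negative one in 4 of 5 with a median of -0.70. None of these markers was called, and at an unadjusted p under 0.05 there were 2 lower of 8, 0 of 9, and 2 lower and 1 higher of 5. Their part in the genotype difference was not tested. With the photoreceptor marker level as a covariate, 2 members passed the test, Idi1 at -0.54 (adjusted p = 0.0286) and Cyp51 at -0.48 (adjusted p = 0.0452). Without P5 cKO 1, Idi1 passed alone, at -0.70 (adjusted p = 0.0362).

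At E15.5 no difference between the genotypes was detected among the members. No member was called, where 0.00739% of all tested genes were. None had an unadjusted p under 0.05 in limma, which 0.362% had, and in none did the groups lie apart, which 5.10% of all tested genes showed. The fit used 1 spread per gene for all groups. The median SD of all tested genes was 0.116 and 0.105 in E15.5 cKO and WT, against 0.232 and 0.317 at P5. A shared spread makes p-values and intervals too large at E15.5 and too small at P5 for a gene of typical spread. A fit of the E15.5 libraries alone also called 0 members. The log2 differences, cKO minus WT, lay between -0.11 (Fdps) and 0.22 (Hsd17b7), with a median of 0.01. The smallest unadjusted p-values belonged to Pmvk, Fdps and Hsd17b7 (0.408, 0.514 and 0.533). Pmvk stood at 204, 202 and 211 in E15.5 cKO, against 207, 218 and 239 in E15.5 WT, a difference of -0.11 (95% interval -0.38 to 0.17). Hsd17b7 stood at 233, 239 and 173 in E15.5 cKO, against 192, 201 and 157 in E15.5 WT, a difference of 0.22 (95% interval -0.54 to 0.99). The values of Fdps were given above, and its groups overlapped as well.

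The genotype difference at P5 was then set against that at E15.5. No member was called in this test of the interaction, where 0.0592% of all tested genes were. The interaction was negative in 27 of 31 members with a median of -0.19, against -0.02 over all tested genes. Cyp51 and Idi1 had the smallest unadjusted p-values, 0.0163 and 0.0403, with log2 interactions of -0.54 ± 0.19 (95% interval -0.95 to -0.12) and -0.47 ± 0.20 (95% interval -0.92 to -0.02) and an adjusted p of 1 for both. They were the 2 members with an unadjusted p under 0.05, which 2.65% of all tested genes had. Both genes were lower in all P5 cKO libraries than in any P5 WT library, and both overlapped between genotypes at E15.5.

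The spread among replicates differed by age. The median SD of a member within its group, on the log2 scale, was 0.21 in P5 cKO and 0.34 in P5 WT, against 0.13 in E15.5 cKO and 0.11 in E15.5 WT, close to those of all tested genes (0.23, 0.32, 0.12 and 0.10 in the same order of groups). Scd1 had the largest SD at P5, 0.77 in cKO and 0.79 in WT, and Insig1 the largest at E15.5, 0.28 and 0.31.

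The 6 P5 libraries can be placed in the order of their photoreceptor marker level, as mean log2 value: WT 1 at 7.46, cKO 1 at 7.46, WT 2 at 8.67, cKO 3 at 9.76, cKO 2 at 10.7 and WT 3 at 11.6. This order was looked for after the values were seen, is a description without a test, and rests on 6 libraries that share the normalisation. Along that order Scd1 stood at 528, 510, 546, 244, 180 and 208, so the 3 libraries with the lowest marker level held 510 to 546 and the other 3 held 180 to 244. Hsd17b7 stood at 185, 143, 125, 116, 67.8 and 71.6. Msmo1 stood at 834, 614, 1026, 733, 528 and 458. Hsd17b7, like Scd1, was lower in each of the 3 libraries with the most photoreceptor RNA than in the other 3, and Msmo1 was lowest in cKO 2 and WT 3.

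Fasn ran the other way, at 1504, 1651, 1742, 1892, 2246 and 3786 along the same order. Acly stood at 1823, 1620, 1624, 1880, 1798 and 3989, so WT 3 alone was high. Acss2 stood at 177, 157, 143, 215, 219 and 319. Acaca stood at 722, 715, 604, 689, 746 and 1082. P5 WT 3 was the highest of the 6 libraries in all 4 genes of acetyl-CoA supply and fatty acid synthesis. With it, Fasn averaged 2344 ± 1255 and Acly 2479 ± 1312 in P5 WT (SD, n = 3). Idi1, at 348, 269, 320, 204, 188 and 293, was higher in each WT library than in any cKO library, and within each genotype it declined along the order.

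**Figure D4:**
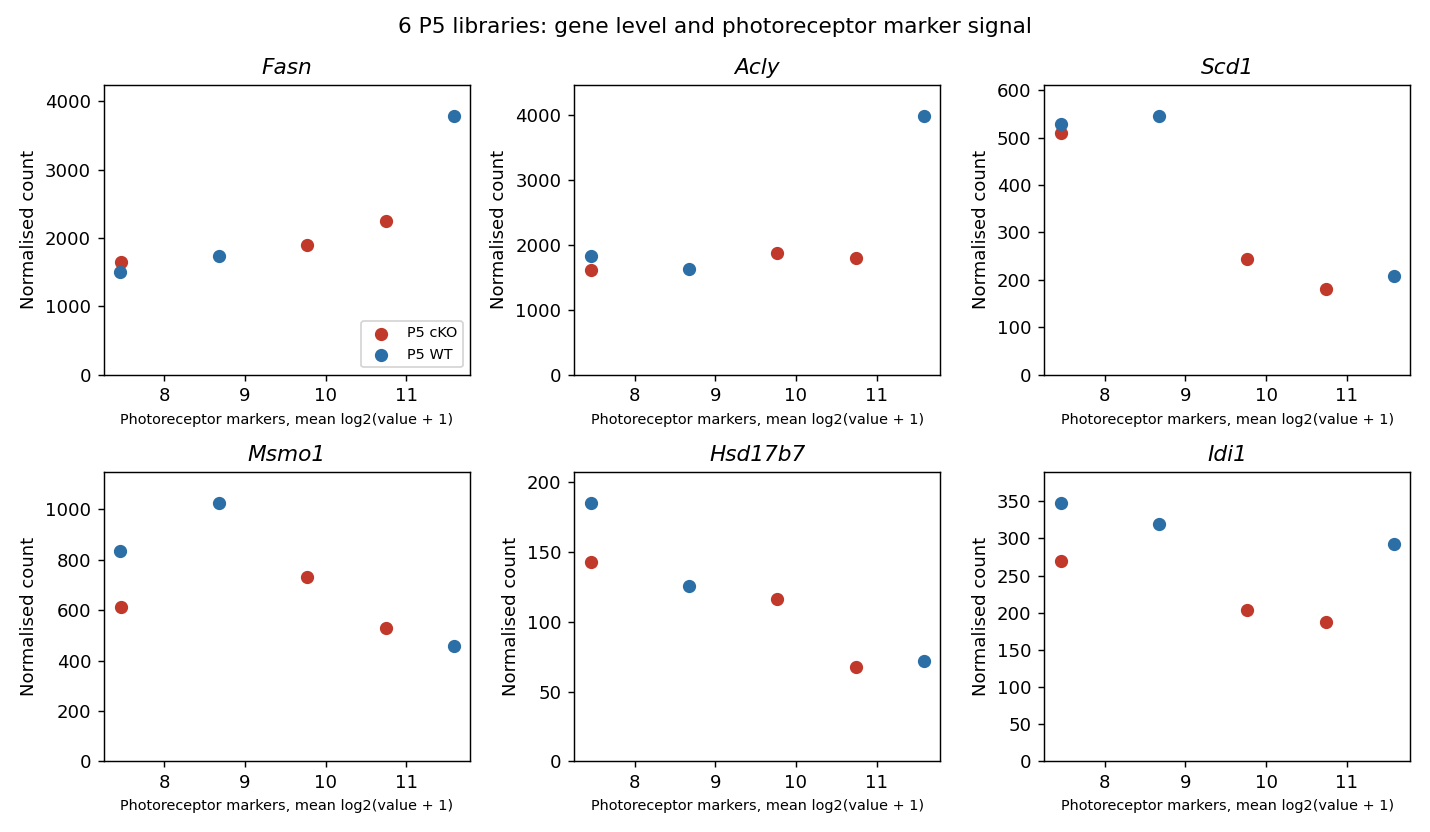
Normalised count of Fasn, Acly, Scd1, Msmo1, Hsd17b7 and Idi1 (vertical axes, from 0) against the mean log2(value + 1) of 18 photoreceptor markers (horizontal axes) in the 6 P5 libraries, red for cKO and blue for WT. Fasn climbs with the marker level, Scd1 falls to between 180 and 244 in the 3 libraries above 9, and Idi1 is lower in red than in blue throughout.

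Of 9 tested genes of sterol synthesis and its control, 4 fell and 2 rose with age in cKO. In WT 2 fell and 2 rose. Among all tested genes 26.1% fell and 17.6% rose in cKO, and 23.2% fell and 2028 of 13523 rose in WT. The 22.2% of this list that fell in WT is close to the share of all tested genes. Scap, the escort that carries the regulators to the Golgi, rose by 0.76 ± 0.12 in cKO and 0.83 ± 0.12 in WT.

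Genes of sterol uptake, efflux and trafficking rose more often than they fell, with 7 higher and 3 lower of 18 tested in cKO. In WT 6 were higher and 2 lower, and the medians were 0.34 in cKO and 0.29 in WT. Among all tested genes 17.6% rose and 26.1% fell in cKO, and 2028 of 13523 rose and 23.2% fell in WT. Apoe, the lipoprotein that carries cholesterol between cells, rose by 1.96 ± 0.25 in cKO and 1.26 ± 0.25 in WT. Vldlr, a lipoprotein receptor, rose by 1.88 ± 0.27 and 1.58 ± 0.27, and Scarb1, which takes up cholesterol from high-density lipoprotein, by 1.50 ± 0.13 and 1.68 ± 0.13. Abcg4, a sterol exporter, rose by 1.50 ± 0.48 in cKO and had a log2 fold change of 1.23 ± 0.48 in WT (adjusted p = 0.0643).

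Genes of fatty acid elongation, desaturation and activation outside the members also rose more often than they fell. Of 25 tested, 8 were higher and 2 lower in cKO, and 7 were higher and 1 lower in WT. Among all tested genes 17.6% rose and 26.1% fell in cKO, and 2028 of 13523 rose and 23.2% fell in WT. Acsl6, which activates long-chain fatty acids, rose by 3.83 ± 0.30 in cKO and 3.77 ± 0.30 in WT on the log2 scale. Elovl7, an elongase, rose by 3.44 ± 0.42 and 2.24 ± 0.42, Fads3, a relative of Fads1 and Fads2, by 2.04 ± 0.31 and 1.64 ± 0.31, and Me1, the malic enzyme that supplies reducing power for synthesis, by 1.57 ± 0.24 and 1.58 ± 0.24. No gene of these 3 lists was called for genotype at either age or for the interaction.

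**Figure D5:**
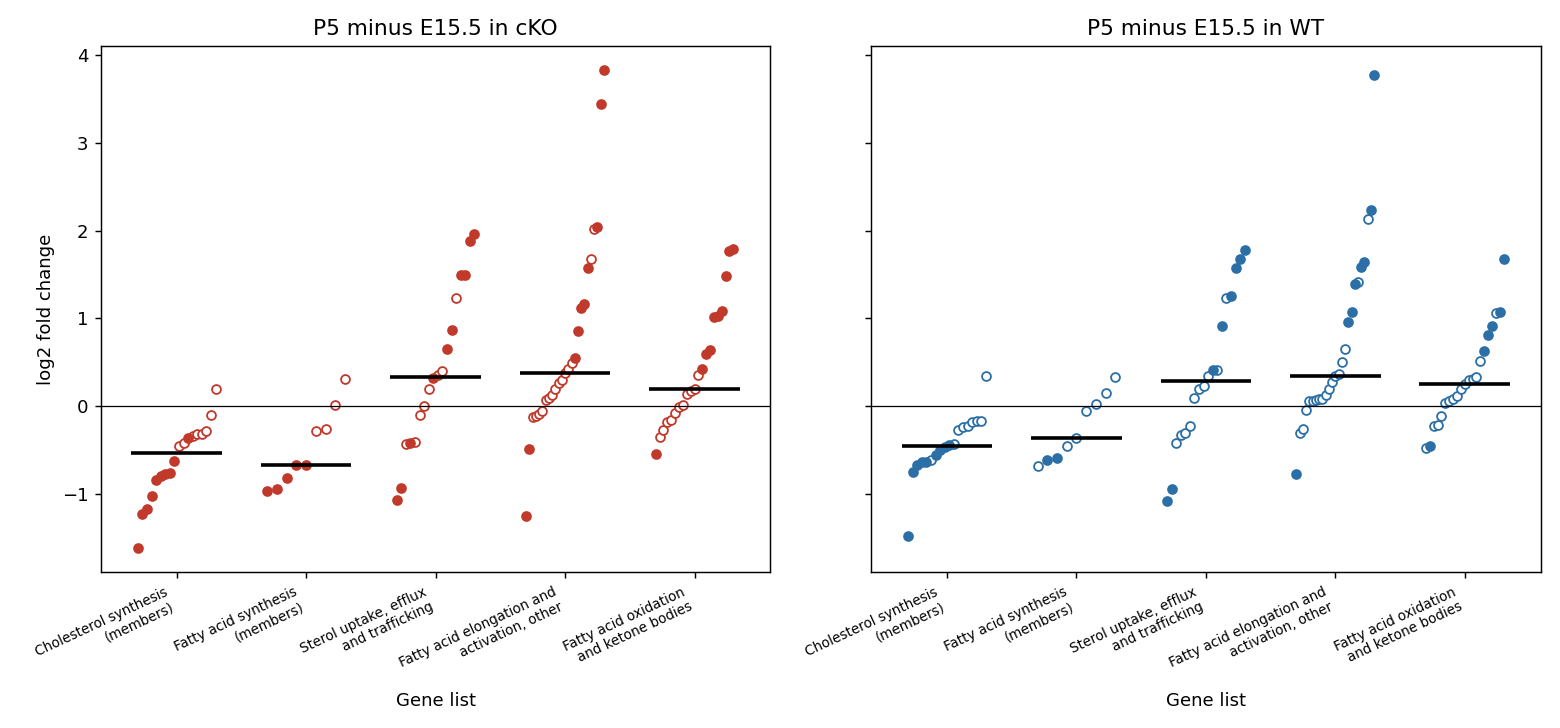
Log2 fold change with age (P5 minus E15.5) of each tested gene in 5 lists (points, filled where called in limma, bar at the list's median), in cKO on the left and WT on the right. The medians of both member branches lie below 0, at -0.54 and -0.67 in cKO and -0.45 and -0.36 in WT, and those of sterol uptake, of other fatty acid elongation and activation genes and of fatty acid oxidation lie above 0.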

How the data were processed

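RNA of mouse RPE was sequenced in 12 libraries, 3 in each of 4 groups, assigned by the ages, genotypes and numbers in the titles. TopHat2 2.0.10 was the aligner, mm10 the build and HTSeq the counter, per the submitters' processing notes. The authors deposited 1 signal value per gene and library: counts quantile-normalised across libraries, with values below 50 set to 50. A median of 367.4 and a column sum of 12618429 were the same in every library, so depth is unknown and no counting error can be given. The sources used here do not give the annotation release, the strand setting or the gene filter.

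The 13523 genes that exceeded the floor in 3 or more of 12 libraries were tested. limma 3.58.1 (R 4.3.3) fitted log2(value + 1) with 1 mean per group and a mean-variance trend, two-sided, and Benjamini-Hochberg adjustment over all tested genes. All groups shared 1 estimate of the spread per gene, although the spread was larger at P5 than at E15.5. Fold changes on this scale understate the change of low genes. Members and lists were chosen with earlier results of these data known. The rule for genes with values in every library was the 3 smallest p-values for genotype at each age and the 3 largest called changes with age in each direction. Hmgcs1, Scd2 and the genes set beside photoreceptor markers were added after their values were seen. Other lists name their called genes of largest change, and some of their genes are not reported here. Alternatives were another pseudocount, 2 other filters, a replicate block, library weights, no trend, marker covariates, the contrast's libraries alone and each library left out. In simulated data for cKO against WT at P5, 67 of 100 genes changed 2-fold and 94 of 100 changed 4-fold were called, as were 22 unchanged genes of 13874 in all. The simulation gave every group the same spread per gene and drew each gene independently. Its changed genes were taken from those with a mean above 4 times the floor, so the shares do not cover lower genes such as Fdps. The real P5 libraries spread more than those at E15.5, so these shares may be too high for P5. Of 13942 identifiers 13927 matched GENCODE M21 (GRCm38), and 5 members share exon bases with another coding gene of the table.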

Additional observations from a re-analysis of the deposited data

How the results depend on the processing

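With 1 library left out, the number of members called ranged from 0 to 0 for genotype at E15.5, from 0 to 1 for genotype at P5 (Idi1 without P5 cKO 1), from 12 to 20 for age in cKO, from 7 to 15 for age in WT and from 0 to 0 for the interaction. For genotype at P5 the photoreceptor covariate gave 2 calls, and no other setting without a library left out gave any. For age in WT, library weights gave 23 calls (19 lower, 4 higher) and the contrast's libraries alone gave 8. For age in cKO the alternatives that kept all libraries gave 14 to 19. At least 1 alternative gave the opposite sign in 10 of 31 members for age in cKO (18 values) and in 12 of 31 for age in WT (35 values), and of these Acly in cKO was the single member called with all libraries and no covariate. Those turned values that passed the test, and that of Acly, were Scd1 with age in cKO, at 0.998 with the photoreceptor covariate (adjusted p = 0.0037), Acly with age in cKO, at 0.025 with the lens covariate (adjusted p = 0.957), Msmo1 with age in WT, at 0.256 with library weights (adjusted p = 0.0284), and Fads1 with age in WT, at 0.452 with the photoreceptor covariate (adjusted p = 0.0209). The cause was not tested. The weights stopped before reaching their convergence tolerance. Leaving out the P5 library of highest photoreceptor signal in each genotype, chosen after seeing the data, gave 17 calls for age in cKO, 17 in WT and 0 for genotype and the interaction. The replicate block gave 17 and 12 calls for age in cKO and WT and 0 for genotype and the interaction. Same-numbered libraries correlated over 0.1 in 7 of 18 pairs (-0.34 to 0.78), and pairs across ages are among the 18. The highest value, 0.78, was that of P5 cKO 1 and P5 WT 1. The differently numbered P5 cKO 2 and P5 WT 3 correlated at 0.71. The labels do not say whether the numbers pair the samples. Correlations of deviations from a mean of 3 libraries cannot decide it. Over single members, calls were lost in 48 of 678 alternative values for age in cKO and 38 of 678 in WT, and gained in 12 and 31. The floor of 50 and the unknown depth limit what can be said of low genes such as Fdps, and 3 libraries a group limit all p-values.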

Other observations

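Genes that burn fatty acids in mitochondria or make and use ketone bodies were measured beside the synthesis genes. Of 21 tested, 9 rose and 1 fell with age in cKO, and 5 rose and 1 fell in WT. Among all tested genes 17.6% rose and 26.1% fell in cKO, and 2028 of 13523 rose and 23.2% fell in WT. The medians of the 21 genes were 0.20 in cKO and 0.25 in WT on the log2 scale. Cpt1a, which admits long-chain fatty acids into mitochondria, stood at 3203, 2787 and 3437 in P5 cKO and 3126, 2972 and 2372 in P5 WT, against 926, 900 and 888 in E15.5 cKO and 997, 877 and 767 in E15.5 WT. No P5 library came near an E15.5 library. Its log2 fold change was 1.79 ± 0.13 in cKO and 1.68 ± 0.13 in WT (SE, adjusted p = 8.2e-06 and 1.3e-05 in limma). Eci1, an isomerase of unsaturated chains, rose by 1.77 ± 0.27 and 1.07 ± 0.27. Acadl, a long-chain dehydrogenase, rose by 1.09 ± 0.29 and 0.81 ± 0.29. Pdk4, a kinase that restrains pyruvate oxidation, rose by 1.49 ± 0.44 in cKO and had a log2 fold change of 1.06 ± 0.44 in WT (adjusted p = 0.0797). Pdk4 stood at the floor of 50 in every E15.5 library and in P5 WT 3, so the floor limits both values. Oxct1, which uses ketone bodies, was chosen after its values were seen as the single gene lower in both genotypes, by -0.55 ± 0.12 and -0.46 ± 0.12. None of the 21 was called for genotype at either age or for the interaction.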
